A study of Mus musculus with 6 samples.

Results

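The IGF genes described here are 8 of the 12436 genes listed in single-cell RNA sequencing files of mouse tibialis anterior muscle (TAM), chosen by their symbols: the ligands *Igf1* and *Igf2*, the receptor *Igf1r*, and the binding proteins *Igfbp3*, *Igfbp4*, *Igfbp5*, *Igfbp6*, and *Igfbp7*. All 8 were found. The study asked how thyroid hormone deficiency alters muscle regeneration. Control mice ate a matched diet, and hypothyroid mice ate an iodine-deficient diet with 0.15% (w/w) propylthiouracil (PTU), a blocker of thyroid hormone synthesis, from 3 weeks before injury. The control and hypothyroid muscles were taken uninjured (day 0) or at 5 or 14 days post injury (dpi) with cardiotoxin (CTX, 50 μg/ml), a membrane-lysing snake toxin, injected into the right TAM. All mice were males of 3 to 5 months that carried the Gt(ROSA)26Sor<tm1(Fucci2aR)Jkn allele, a cell cycle reporter, on a B6;129 background, controls included. Per the study's methods, the sequenced animals came from a cross with *Pax7*-Cre mice but lacked Cre themselves. Each of the 6 combinations of diet and day is 1 library made from 3 pooled mice. With no replicate, no difference between conditions was tested, and every interval given covers counting error only, not differences between mice or libraries.

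IGF1 and IGF2 are growth factors that signal through the receptor kinase encoded by *Igf1r*. The IGF binding proteins hold the ligands in the fluid and matrix around cells, where proteases release them, and *Igfbp7* encodes a matrix protein with low affinity for IGFs. In skeletal muscle, *Igf1* is known as a product of fibro-adipogenic progenitors (FAPs), the resident mesenchymal cells, and of repair macrophages, and it acts on satellite cells and fibres, while *Igf2* is known from myogenic differentiation and fetal tissue.

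Levels are unique molecular identifiers (UMIs, each a captured RNA molecule) summed over the cells of a type and scaled by the total of those cells to CPM (UMIs per 1e+06), with an exact Poisson 95% interval. A ratio of hypothyroid over control has the exact 95% interval from the binomial distribution. A gene was counted as past 2-fold when its ratio was above 2 or below 0.5 and it had at least 20 UMIs over the 2 pools of cells compared. The share of all such genes past 2-fold is given as the background of a count of members or pathway genes. Cells were put in a type by the share of that type's marker genes they expressed, which named 10178 of the 11207 cells used and left 1029 without a type. The cells close to a limit of the gate, with or without a type, also numbered 1029, and these groups can overlap. In the FAP-like pool *Pdgfra* stood at 220.1 CPM, against 53.1 CPM in the next highest type. The FAP markers *Dcn*, *Col1a1*, *Col1a2*, *Serpinf1*, and *Pcolce*, however, were higher in tenocyte-like cells. The libraries held 528 to 3294 cells and 2283954 to 23497545 UMIs, with a median of 3634 to 8055 UMIs per cell, and 12 barcodes occurred in more than 1 of them. The files also hold later runs of columns, which include copies of cells from other files, so whether the first run of each file belongs to its label could not be checked. With all columns pooled, a copied cell counts under the label of each file that holds it.

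Summed over all libraries, FAP-like cells carried most of the RNA of every member. They held 93.9% of the *Igfbp6* UMIs, 90.7% of *Igfbp4*, 85.7% of *Igfbp5*, 85.4% of *Igfbp3*, 83.9% of *Igf1*, 80.1% of *Igf2*, 66.2% of *Igfbp7*, and 55.0% of *Igf1r*. The share varied between libraries, from 29.9% (control at 5 dpi) to 85.8% (uninjured hypothyroid) for *Igf1r* and from 36.6% (control at 14 dpi) to 88.9% (hypothyroid at 5 dpi) for *Igfbp7*, and for *Igf2* 239 of the 314 UMIs came from hypothyroid muscle at 14 dpi. FAP-like cells made up 18.9% to 68.4% of the cells of a library and were its largest type except in control muscle at 5 dpi, where NK cell-like cells were more numerous (581 against 458 cells). By level rather than total, and among types of at least 20 cells, *Igfbp7* stood highest in endothelial-like or mural-like cells in all 6 libraries.

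**Figure D1:**
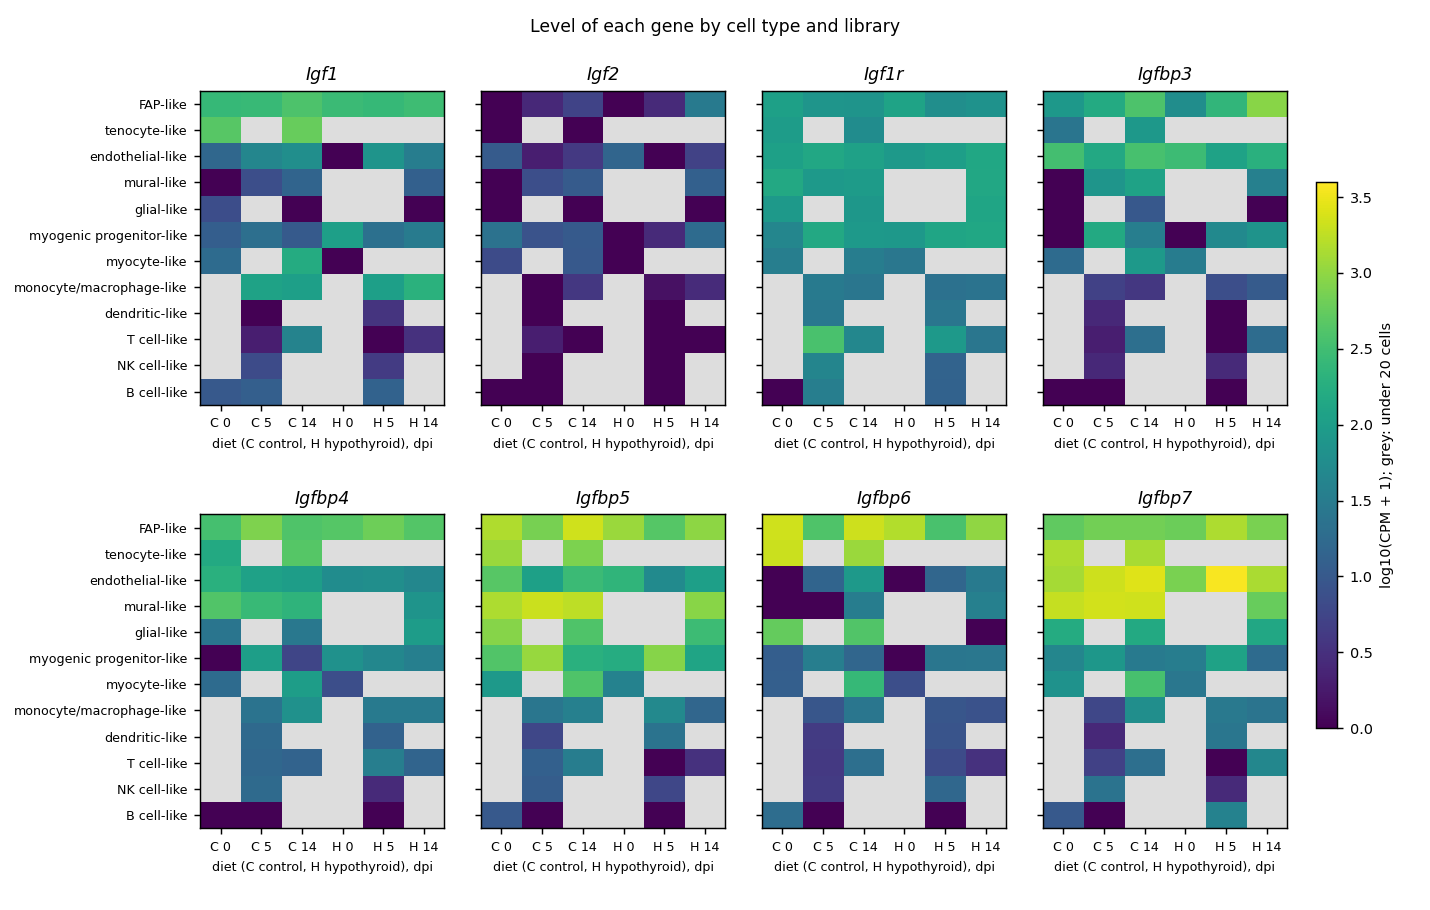
Level of each of the 8 genes, as the colour on a log10(CPM + 1) scale, in 12 marker-gated cell types (rows) of the 6 libraries (columns, C for control and H for hypothyroid with the dpi), where grey marks pools under 20 cells. *Igfbp6* is brightest in FAP-like and tenocyte-like rows, *Igfbp7* in endothelial-like and mural-like rows, and T cell-like cells stand out for *Igf1r* in the control library at 5 dpi, at 364.7 CPM.

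*Igf1* was the ligand with the steadier level in FAP-like cells. It stood at 255.9, 266.1, and 386.6 CPM in control muscle and 285.8, 256.3, and 301.6 CPM in hypothyroid muscle at 0, 5, and 14 dpi. The libraries of the first 2 days lay close together, and the control library at 14 dpi was the highest. The ratio of hypothyroid over control was 1.12 (1.001 to 1.25) uninjured, 0.963 (0.909 to 1.02) at 5 dpi, and 0.780 (0.742 to 0.820) at 14 dpi. Within FAP-like cells, those gated on an interstitial list (*Smoc2*, *Col15a1*, *Hmcn2*, *Lpl*, *Cxcl14*, *Apod*) had more *Igf1* than those gated on a progenitor list (*Pi16*, *Dpp4*, *Cd55*, *Anxa3*, *Wnt2*, *Sema3c*) in all 6 libraries, with 369.6 to 637.8 against 126.3 to 194.3 CPM. The lower level in hypothyroid muscle at 14 dpi was found in the *Smoc2* subgate, at 369.6 against 637.8 CPM (ratio 0.580, 0.542 to 0.620), and not in the *Pi16* subgate, at 194.3 against 161.6 CPM (1.202, 1.08 to 1.34). In the injury matrix subgate, defined further down, it was at 0.622 (0.501 to 0.772). Tenocyte-like cells, the other fibroblast-type cells of the muscle, had 464.0 CPM in uninjured and 584.4 CPM in 14 dpi control muscle, above FAP-like cells in both.

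Among named types, monocyte/macrophage-like cells held the next largest number of *Igf1* UMIs at 5 dpi in both diets and at 14 dpi in hypothyroid muscle, while in control muscle at 14 dpi they held 38 UMIs against 329 in tenocyte-like cells. At 5 dpi nearly all of these UMIs were in cells with complement C1q RNA. C1q-positive cells, which had at least 2 of *C1qa*, *C1qb*, and *C1qc*, are the macrophages that follow inflammatory monocytes in healing muscle. At 5 dpi they had 216.8 CPM (182.9 to 255.1, 96 cells) in control muscle and 113.1 CPM (103.3 to 123.6, 498 cells) in hypothyroid muscle. C1q-negative cells held 1 *Igf1* UMI in 112 cells of the control library, and none in 37 cells of the hypothyroid library, which allows up to 8.11% of cells with a UMI and does not limit how many express the gene. At 14 dpi the order of the diets was the other way, with 137.7 CPM (95.9 to 191.5, 68 cells) in control and 225.7 CPM (196.6 to 257.9, 111 cells) in hypothyroid muscle. The ratios were 0.521 (0.432 to 0.632) and 1.64 (1.14 to 2.42). Both differences rest on few cells. At 14 dpi a single cell held 29 of the 216 hypothyroid UMIs. At 5 dpi a single cell held 22 of the 145 control UMIs, the share of cells with a UMI was 36.5% in control and 41.2% in hypothyroid muscle, and the ratio was 0.828 with every cell thinned to 1000 UMIs and 1.05 for the mean over cells of the deposited values. T cell-like cells, which should lack *Igf1*, had a UMI in 1 of 321 and 0 of 95 cells at 5 dpi, at median depths of 2330 and 2948 UMIs against 5721 and 6758 UMIs in the C1q-positive cells. Monocyte/macrophage-like cells made up 25.9% of the hypothyroid and 8.90% of the control library at 5 dpi, and held 11.4% and 7.56% of the *Igf1* UMIs.

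*Igf2* was not detected in FAP-like cells of uninjured muscle and was detected at 14 dpi. There were 0 UMIs in 788 control and 0 in 321 hypothyroid cells at day 0, which allow up to 0.648 and 1.86 CPM. At 5 dpi the levels were 1.57 and 1.67 CPM from 10 and 23 UMIs, and at 14 dpi they were 4.26 CPM (3.07 to 5.76, 42 UMIs) in control and 28.0 CPM (24.6 to 31.8, 239 UMIs) in hypothyroid muscle. The hypothyroid library at 14 dpi thus stood above all others, with a ratio to control of 6.58 (4.72 to 9.36), and was at least 15.1-fold higher than the uninjured hypothyroid library. A UMI was found in 15.2% of the FAP-like cells of that library (137 of 904) and in 2.24% of those of the control library (38 of 1698), at median depths of 9377 and 5512.5 UMIs. At 1000 UMIs per cell, with 22 and 103 shallower cells left out, the shares were 2.04% and 0.502%, and the ratio was 4.22. No T cell-like cell at 14 dpi had a UMI, in 127 hypothyroid and 60 control cells, which allows up to 2.36% and 5.00% of cells with a UMI. The hypothyroid library was higher in both FAP subgates, with 10.5 against 2.28 CPM in *Pi16* cells and 34.6 against 6.38 CPM in *Smoc2* cells. Other types had few UMIs, with at most 6 in myogenic progenitor-like cells of any library, and 9 and 6 in endothelial-like cells of control and hypothyroid muscle at 14 dpi. Their pools were also smaller, and by level FAP-like cells were not the highest type in any control library. Myogenic progenitor-like cells were at 7.319 CPM (2.686 to 15.93) in control muscle at 5 dpi. In hypothyroid muscle at 14 dpi they were at 17.33 CPM (4.721 to 44.37), an interval that overlaps that of FAP-like cells. With all columns of each file pooled, later runs included, the *Igf2* ratio at 14 dpi was 2.42, and for the mean over cells of the deposited values it was 1.89. *H19*, the imprinted non-coding gene that lies beside *Igf2* (chr7:142129262-142131887 and chr7:142204503-142220554 in GRCm39), is a pathway gene described further down.

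*Igf1r* reads showed a receptor present in nearly every cell type, with one library and type standing out. In FAP-like cells it was at 108.8, 73.4, and 72.0 CPM in control and 123.4, 59.3, and 68.0 CPM in hypothyroid muscle, with the higher values before injury in both diets. Endothelial-like cells were at 83.8 to 145.1 CPM and myogenic progenitor-like cells at 43.4 to 148.8 CPM over the 6 libraries, and the interval of the ratio between diets held 1 on all 3 days in both types. Monocyte/macrophage-like cells were lower, at 21.2 to 28.3 CPM at 5 and 14 dpi. T cell-like cells had 364.7 CPM (328.5 to 403.9, 369 UMIs in 321 cells) in control muscle at 5 dpi, the highest type of that library ahead of 34 neutrophil-like cells at 207.7 CPM (116.3 to 342.6), and 88.2 CPM (59.9 to 125.2, 31 UMIs in 95 cells) in hypothyroid muscle. The ratio was 0.242 (0.162 to 0.349), or 0.308 relative to the median of all genes (0.785), and it was 0.723 with all columns of each file pooled. At 14 dpi the same type had 45.6 CPM from 7 UMIs and 24.6 CPM from 11 UMIs. A UMI was found in 29.0% (24.1 to 34.3) of the control and 12.6% (6.70 to 21.0) of the hypothyroid T cell-like cells at 5 dpi, and at 1000 UMIs per cell in 19.7% and 5.49%. B cell-like cells of these libraries gave 5.08% and 2.04% and NK cell-like cells 9.47% and 5.13%. By level, NK cell-like cells were also lower in hypothyroid muscle, so the difference was not limited to T cell-like cells. They had 42.25 CPM (34.59 to 51.1, 106 UMIs) in control and 13.15 CPM (5.678 to 25.92, 8 UMIs) in hypothyroid muscle. T cell-like cells held 23.6% of all *Igf1r* UMIs of the control library at 5 dpi, and 2.39% of those of the hypothyroid library. Among all genes tested in T cell-like cells at 5 dpi, 17.8% were lower and 3.51% higher past 2-fold in hypothyroid muscle. Only 2 members were tested there, *Igf1r* and *Igfbp4*, the latter with 12 and 15 UMIs and a ratio of 2.30 (0.984 to 5.27). Marker lists also differed between diets in these T cell-like cells. In hypothyroid against control, dendritic markers summed to 105.3 against 384.5 CPM and myocyte markers to 332.9 against 2166 CPM. NK cell markers summed to 955.9 against 500.2 CPM and T cell markers to 4068 against 3270 CPM. Their part in the ratios was not tested.

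**Figure D2:**
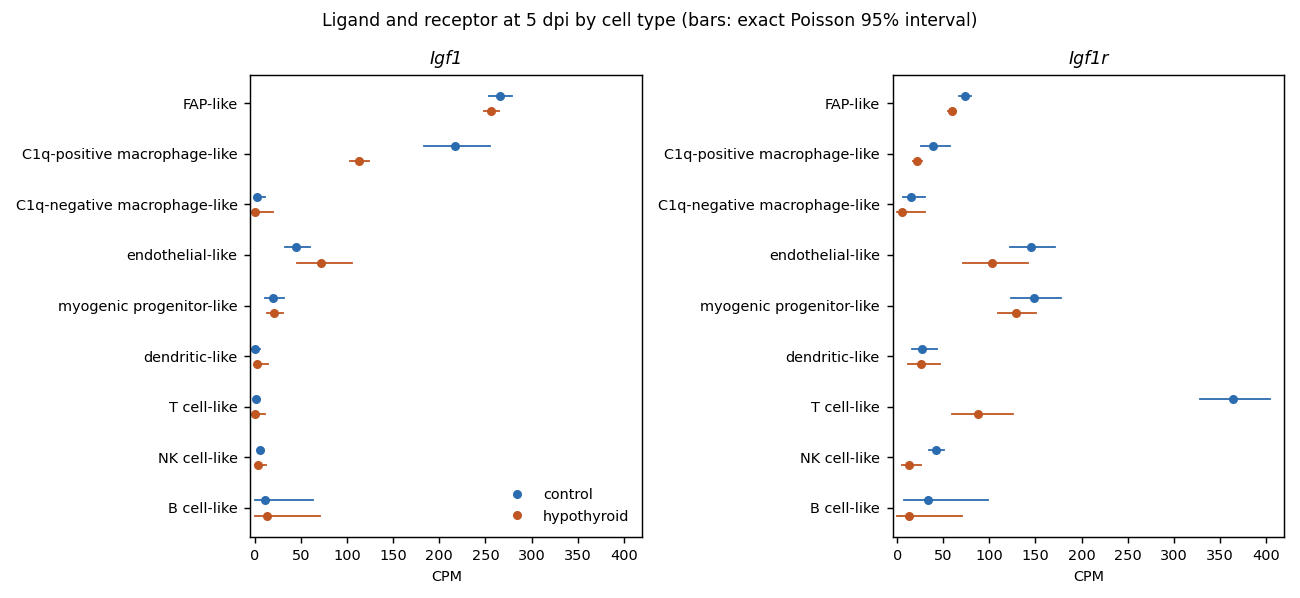
*Igf1* (left) and *Igf1r* (right) at 5 dpi in CPM (horizontal axis) by cell type (rows), with control in blue, hypothyroid in orange, points for levels, and bars for exact Poisson 95% intervals. *Igf1* is found in FAP-like and C1q-positive macrophage-like cells and is near 0 in C1q-negative ones, and *Igf1r* is highest in control T cell-like cells, at 364.7 CPM against 88.2 CPM in hypothyroid ones.

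The binding proteins of FAP-like cells split by day into those lower at 5 dpi and those higher. *Igfbp6*, whose product prefers IGF2, had 2213, 403.6, and 2102 CPM in control muscle at 0, 5, and 14 dpi, and 1512, 362.4, and 988.8 CPM in hypothyroid muscle. *Igfbp5*, whose product binds matrix and both ligands, had 1466, 721.9, and 2186 CPM in control and 1162, 446.4, and 982.0 CPM in hypothyroid muscle. Both genes were lowest at 5 dpi in both diets, and at 14 dpi they stood at 0.950 and 1.49 times the uninjured level in control, and at 0.654 and 0.845 times in hypothyroid muscle. *Igfbp4*, encoding a soluble binding protein, went the other way, with 344.6, 803.8, and 406.6 CPM in control and 452.5, 628.0, and 438.9 CPM in hypothyroid muscle. *Igfbp3*, encoding the main carrier of IGF1 in serum, was higher on each later day, with 83.4, 156.2, and 391.7 CPM in control and 57.6, 232.8, and 910.1 CPM in hypothyroid muscle. *Igfbp7* had 528.0, 685.9, and 684.0 CPM in control and 624.8, 1416, and 739.9 CPM in hypothyroid muscle, so the hypothyroid library at 5 dpi stood apart.

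**Figure D3:**
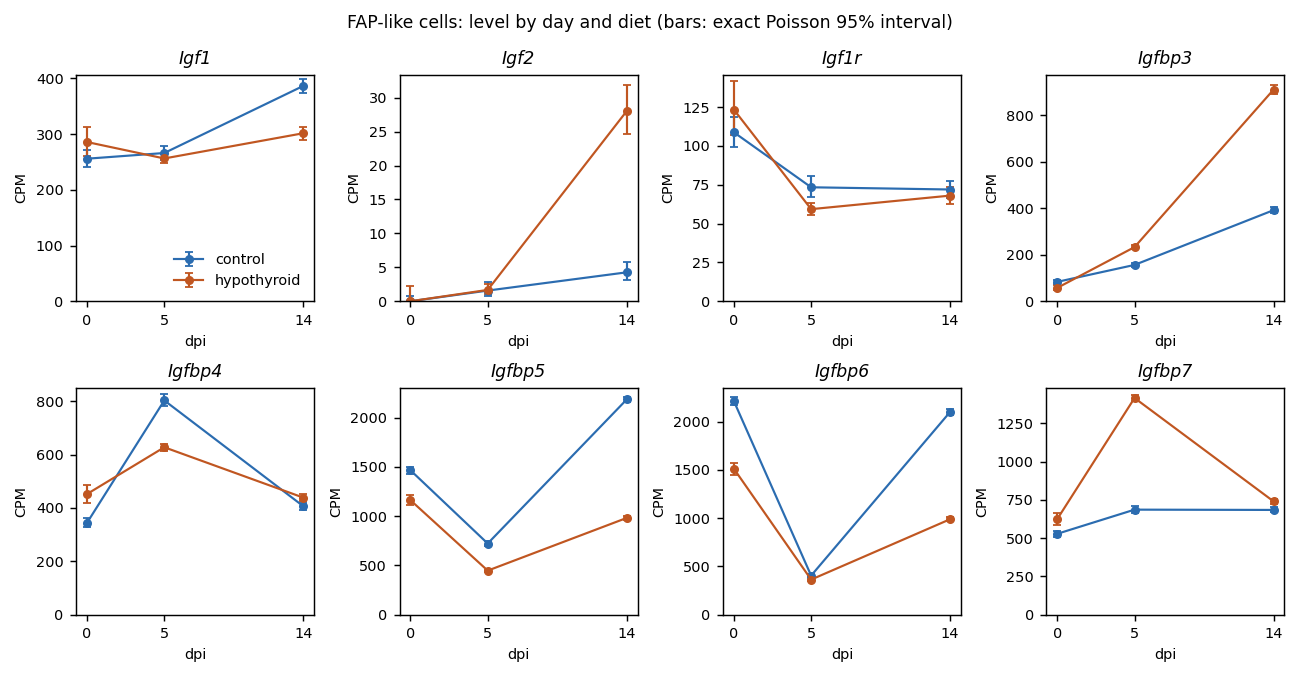
Level of each of the 8 genes in FAP-like cells in CPM (vertical axes, each starting at 0) by dpi (horizontal axes), with control in blue, hypothyroid in orange, 1 library per point, and bars for exact Poisson 95% intervals. The curves separate most for *Igf2*, *Igfbp3*, *Igfbp5*, and *Igfbp6* at 14 dpi and for *Igfbp7* at 5 dpi.

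From 0 to 5 dpi, *Igfbp6* was 0.182 times (0.175 to 0.190) its uninjured level in control and 0.240 times (0.228 to 0.252) in hypothyroid muscle, and *Igfbp5* was 0.492 and 0.384 times. In control muscle 2 of 7 tested members were lower past 2-fold, with a background of 12.1% of all genes, and 1 was higher, *Igfbp4* at 2.33 (2.20 to 2.47), with a background of 21.0%. In hypothyroid muscle 3 of 8 were lower (background 20.6%), with *Igf1r* at 0.481 besides those 2, and 2 were higher (17.3%), *Igfbp3* at 4.04 and *Igfbp7* at 2.27. From 5 to 14 dpi, 4 of 8 members were higher past 2-fold in both diets and none was lower: *Igf2*, *Igfbp3*, *Igfbp5*, and *Igfbp6*. The background was 9.69% higher and 16.6% lower in control, and 11.3% higher and 15.7% lower in hypothyroid muscle. *Igfbp6* was 5.21 times (5.00 to 5.43) higher in control and 2.73 times (2.64 to 2.83) in hypothyroid muscle over that span. These spans share the 5 dpi libraries, so their ratios are not independent of each other. The median ratio of all genes was 1.10 and 0.911 over the 2 spans in control and 0.898 and near 1 in hypothyroid muscle, and relative to it *Igf1r* in hypothyroid muscle at 5 dpi was at 0.535, within 2-fold. With all columns pooled, the control ratios of 5 over 0 dpi were 0.865 for *Igfbp6* and 1.25 for *Igfbp5*, the latter opposite in direction. That uninjured control pool draws on a run of 1152 columns identical to columns of the hypothyroid file of 14 dpi.

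Within subgates, the low point of *Igfbp6* at 5 dpi was present, but that of *Igfbp5* was small or missing. *Pi16* cells had the higher level of both genes. Their *Igfbp6* was at 3070, 1255, and 2699 CPM in control and 2013, 1474, and 1575 CPM in hypothyroid muscle, and *Smoc2* cells had 1327, 196.9, and 1512 CPM and 1007, 290.6, and 648.7 CPM. *Igfbp5* in *Pi16* cells was at 2281, 2589, and 3544 CPM in control and 2154, 1961, and 2319 CPM in hypothyroid muscle, with no low value at 5 dpi in control, and in *Smoc2* cells at 689.1, 505.6, and 807.1 CPM in control and 318.0, 413.9, and 256.7 CPM in hypothyroid muscle. Over the same days *Pi16* cells were 291 of 788, 86 of 458, and 682 of 1698 FAP-like cells in control, and 111 of 321, 116 of 927, and 305 of 904 in hypothyroid muscle. Cells led by an injury matrix list (*Cthrc1*, *Tnc*, *Lrrc15*, *Adam12*, *Postn*, *Timp1*) went from 0 at day 0 to 240 and 528 cells at 5 dpi, and had 295.2 and 237.0 CPM of *Igfbp5*. The ratio of *Igfbp5* at 5 dpi over 0 dpi in all control FAP-like cells was 0.876 with every cell thinned to 1000 UMIs and 0.914 for the mean over cells, so it depended on how cells were weighted. *Igfbp4* was higher at 5 dpi in both subgates, at 1612 CPM in control *Smoc2* cells against 365.0 CPM uninjured.

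The promoters of the 3 binding protein genes among the 8 members that were past 2-fold between diets at 14 dpi are shown because *Igfbp5* and *Igfbp6* were lower and *Igfbp3* higher in hypothyroid FAP-like cells. Each is the 250 bases before the start of the canonical transcript, on the gene's strand from 5′ to 3′, in GRCm39 with the GENCODE vM39 annotation, which starts *Igfbp6* 100 bases and *Igfbp3* 255 bases before the gene start in the files. Capitals mark a match on either strand to the TATA box TATAAA, to the thyroid hormone receptor half-site AGGTCA, to the GC box written GGGCGG, or to the AP-1 site, searched as TGANTCA.
Igfbp5, chr1:72914044-72914293, minus strand: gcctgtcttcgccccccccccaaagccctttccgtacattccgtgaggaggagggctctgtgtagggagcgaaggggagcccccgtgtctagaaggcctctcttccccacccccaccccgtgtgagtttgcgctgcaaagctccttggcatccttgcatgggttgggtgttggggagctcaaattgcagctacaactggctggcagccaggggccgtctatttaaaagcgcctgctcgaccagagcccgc
Igfbp6, chr15:102052447-102052696, plus strand: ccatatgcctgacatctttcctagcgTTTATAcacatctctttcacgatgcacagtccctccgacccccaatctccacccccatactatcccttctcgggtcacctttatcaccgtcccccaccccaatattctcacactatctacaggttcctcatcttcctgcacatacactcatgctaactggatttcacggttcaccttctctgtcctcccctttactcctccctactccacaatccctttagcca
Igfbp3, chr11:7164180-7164429, minus strand: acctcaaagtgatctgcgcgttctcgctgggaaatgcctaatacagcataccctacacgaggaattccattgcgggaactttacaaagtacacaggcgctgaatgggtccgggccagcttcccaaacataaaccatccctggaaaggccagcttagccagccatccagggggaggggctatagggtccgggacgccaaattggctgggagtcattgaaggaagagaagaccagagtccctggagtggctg
The 1 match was TATAAA on the opposite strand of the *Igfbp6* window, 224 bases before its start. Among 12159 promoters of listed genes, 7.76% held TATAAA, 11.4% AGGTCA, 48.4% GGGCGG, and 4.85% TGANTCA. None of the windows of the 8 members held AGGTCA, which says only that these letters are not in these windows. *Igfbp5* and *Igfbp2* lie close together on chromosome 1, at chr1:72897091-72914044 and chr1:72863662-72891634.

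Between diets, no member was past 2-fold among 7 tested in FAP-like cells of uninjured muscle, where 3.95% of all genes were higher and 3.82% lower. *Igfbp6* was at 0.683 (0.654 to 0.714), *Igfbp3* at 0.692 (0.545 to 0.869), and *Igfbp4* at 1.31 (1.201 to 1.43). Within *Smoc2* cells *Igfbp5* was at 0.462 (0.400 to 0.530) and *Igfbp3* at 0.487 (0.368 to 0.637), while *Igfbp5* in *Pi16* cells was at 0.945 (0.892 to 0.9996). In uninjured FAP-like cells the myocyte markers summed to 10470 CPM in hypothyroid against 3264 CPM in control and the red cell genes to 1637 against 256.5 CPM, and their part in these ratios was not tested. At 5 dpi, *Igfbp7* was the 1 of 8 members past 2-fold, higher in hypothyroid muscle at 1416 against 685.9 CPM (ratio 2.06, 1.998 to 2.13). The background was 3.16% of all genes higher and 9.99% lower. The median ratio of all genes was 0.799 in this comparison (-0.324 on the log2 scale), and relative to it *Igfbp7* was at 2.58 and *Igfbp5*, at 446.4 against 721.9 CPM (0.618, 0.595 to 0.643), at 0.774. *Igfbp7* was also higher in hypothyroid cells of each subgate, at 1.41 (1.24 to 1.59) in *Pi16*, 1.93 (1.74 to 2.13) in *Smoc2*, and 2.04 (1.95 to 2.13) in injury matrix cells, and at 1000 UMIs per cell 63.3% of hypothyroid and 43.0% of control FAP-like cells had a UMI, but 30.6% and 31.8% of *Pi16* cells. With all columns pooled the ratio was 1.70, within 2-fold.

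At 14 dpi, 2 of 8 members were higher past 2-fold in hypothyroid FAP-like cells, *Igf2* and *Igfbp3*, and 2 were lower, *Igfbp5* and *Igfbp6*. Of all genes, 1.36% were higher and 6.78% lower. *Igfbp3* stood at 910.1 against 391.7 CPM (ratio 2.32, 2.24 to 2.42), *Igfbp5* at 982.0 against 2186 CPM (0.449, 0.438 to 0.461), and *Igfbp6* at 988.8 against 2102 CPM (0.470, 0.459 to 0.482). The ratios of *Igfbp5* and *Igfbp6* lay close to the limit: with cells thinned to 1000 UMIs they were 0.529 and 0.528, with all columns pooled 0.632 and 0.580, and relative to the median ratio of all genes (0.929, or -0.107 on the log2 scale) 0.484 and 0.507. *Igfbp3* was at 1.78 with all columns pooled. In *Pi16* cells *Igfbp3* was at 360.3 against 104.6 CPM (3.44, 3.09 to 3.84), *Igfbp5* at 2319 against 3544 CPM (0.654, 0.636 to 0.673), and *Igfbp6* at 1575 against 2699 CPM (0.583, 0.564 to 0.603). In *Smoc2* cells the same genes were at 1238 against 746.5 CPM (1.66, 1.58 to 1.74), 256.7 against 807.1 CPM (0.318, 0.295 to 0.342), and 648.7 against 1512 CPM (0.429, 0.409 to 0.450). The direction of all 3 was thus the same in both subgates, with sizes that differed. *Igfbp3* was carried by part of the cells: 49.9% of hypothyroid and 30.3% of control FAP-like cells had a UMI, 31.4% and 16.4% at 1000 UMIs per cell, against 6.30% and 5.00% of T cell-like cells, and the top 10% of cells held 62.5% and 81.3% of its UMIs. RNA of other cells moved with diet in the FAP-like pool at 14 dpi, as the 10 myocyte markers summed to 7720 against 2458 CPM (control against hypothyroid) and the 5 red cell genes to 2497 against 107.5 CPM, and their part in the ratios was not tested.

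**Figure D4:**
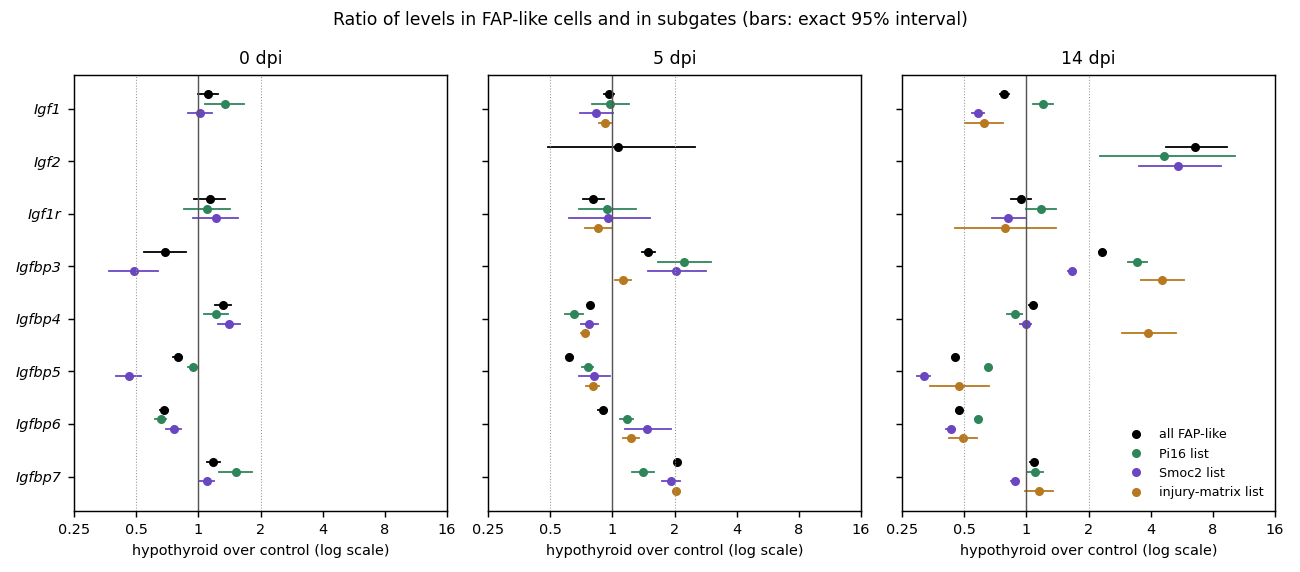
Ratio of hypothyroid over control level (horizontal axes, log scale) for each gene in FAP-like cells at 0, 5, and 14 dpi (panels), with points for all FAP-like cells (black) and the *Pi16*, *Smoc2*, and injury matrix subgates, bars for exact 95% intervals, and dotted lines at 0.5 and 2. At 14 dpi *Igf2* and *Igfbp3* lie above 1 and *Igfbp5* and *Igfbp6* below 1 in every pool shown, and *Igf2* of the injury matrix subgate, with no control UMI, is left out.

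Endothelial-like cells, which line vessels, were the highest type for *Igfbp7* in 4 libraries, and mural-like cells in the uninjured and 5 dpi control libraries. In the latter, and between endothelial-like and FAP-like cells of uninjured hypothyroid muscle, the intervals of the leading types overlapped. Types under 20 cells were not ranked, among them mural-like cells of uninjured and 5 dpi hypothyroid muscle, with 10 and 7 cells. Endothelial-like levels were 1302, 2120, and 2675 CPM in control and 740.1, 3622, and 1382 CPM in hypothyroid muscle at 0, 5, and 14 dpi, so hypothyroid muscle was above control at 5 dpi and below it on the other days. The ratios were 0.568 (0.415 to 0.766), 1.71 (1.59 to 1.83), and 0.517 (0.492 to 0.542), with 29 and 38 hypothyroid cells on the first 2 days, and with all columns pooled the ratio at 5 dpi was 0.986. At 5 dpi the monocyte/macrophage markers summed to 3161 CPM in hypothyroid against 53.9 CPM in control endothelial-like cells, and the endothelial markers to 5846 against 8458 CPM, and their part in the ratio was not tested. *Igfbp3* in endothelial-like cells was at 193.8 CPM in hypothyroid against 353.2 CPM in control muscle at 14 dpi (0.549, 0.479 to 0.626), opposite in direction to FAP-like cells. In uninjured muscle of both diets it was higher in endothelial-like than in FAP-like cells, at 336.7 against 83.4 CPM in control and 293.3 against 57.6 CPM in hypothyroid muscle. At 14 dpi, 3 of 7 tested members were lower past 2-fold in hypothyroid endothelial-like cells (background 7.08%) and none was higher (2.07%): *Igfbp4* at 0.445, *Igfbp5* at 0.374, and *Igfbp6* at 0.342. FAP markers moved with them, since the 10 genes of that list summed to 1184 CPM in hypothyroid against 1998 CPM in control endothelial-like cells, and their part in these ratios was not tested.

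Mural-like cells, the pericytes and smooth muscle of vessels, had *Igfbp5* at 1449, 2081, and 1752 CPM in control muscle and 914.7 CPM (34 cells) in hypothyroid muscle at 14 dpi, and *Igfbp7* at 1922, 2282, and 2198 CPM and 582.1 CPM in the same libraries. At 14 dpi the ratios were 0.522 (0.408 to 0.659) and 0.265 (0.195 to 0.353). In these cells the mural markers themselves summed to 13245 CPM in hypothyroid against 22481 CPM in control, the myogenic progenitor markers to 879.1 against 257.0 CPM, and the red cell genes to 35.6 against 12608 CPM, and their part was not tested. Tenocyte-like cells had *Igfbp6* at 2040 CPM in uninjured and 1156 CPM in 14 dpi control muscle. Glial-like cells of control muscle had *Igfbp6* at 554.3 and 418.7 CPM on the same days, and those of hypothyroid muscle at 14 dpi held none in 21 cells, which puts the ratio at no more than 0.0538 at the 3-count floor. That comparison rests on 29 and 21 cells.

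Myogenic progenitor-like cells, the satellite cells and their progeny, had their highest *Igfbp5* level at 5 dpi. The levels were 423.5, 1092, and 189.8 CPM in control and 170.4, 868.9, and 125.6 CPM in hypothyroid muscle, from 22 to 80 cells per library. The 5 dpi libraries were the highest in both diets and lay close together, with a ratio of 0.796 (0.727 to 0.871). Markers of other types moved with the day in these cells: from 0 to 5 dpi in control, the FAP list went from 119.5 to 2974 CPM and the mural list from 32.6 to 1105 CPM, while the myogenic progenitor list went from 7385 to 2347 CPM. In hypothyroid muscle the same lists went from 194.7 to 1459, from 219.0 to 770.1, and from 4697 to 1267 CPM, and their part was not tested. At 5 dpi 2 of 7 tested members were lower past 2-fold in hypothyroid cells (background 10.9%) and none was higher (3.05%). These were *Igfbp3*, at 50.2 against 151.3 CPM, and *Igfbp4*, at 45.2 against 103.7 CPM, and the FAP list summed to 1459 against 2974 CPM in the same cells, whose part was not tested. In monocyte/macrophage-like cells at 5 dpi 1 of 7 members was higher past 2-fold (background 6.91%), *Igfbp7* at 27.2 against 4.85 CPM, and none was lower (13.9%), and there the FAP list was at 507.1 against 160.0 CPM, whose part was not tested either.

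Of 45 other genes of the IGF pathway, 40 are listed in the files. In FAP-like cells at 14 dpi, 3 of 40 were higher and 5 lower past 2-fold in hypothyroid muscle, where the background was 1.36% and 6.78% of all genes, with a median ratio of 0.894 against 0.929 over all genes. Those higher were *H19*, at 317.1 against 158.1 CPM (2.005, 1.88 to 2.13), *Igfbp2*, a binding protein gene with 26 against 3 UMIs, and *Stc1*, encoding an inhibitor of pappalysins, with 73 against 41 UMIs. Those lower were the binding protein proteases *Htra1*, at 65.0 against 194.2 CPM (0.335, 0.304 to 0.368), *Pappa*, with 18 against 64 UMIs, and *Pappa2*, with 11 against 30 UMIs, together with *Stat5b*, a transducer of growth hormone, at 10.9 against 26.0 CPM (0.420, 0.328 to 0.534), and *Trim63*, a muscle atrophy ligase, with 5 against 28 UMIs. The myocyte markers in the same cells summed to 2458 against 7720 CPM, and their part in the *Trim63* ratio was not tested. At 5 dpi, 5 of 39 were lower and none higher, among them *Htra1* at 0.402 (0.364 to 0.444) and *Htra3* at 0.407 (0.380 to 0.435), beside a background of 9.99% lower and 3.16% higher, and the median was 0.767 against 0.799 over all genes. The rest were *Pappa2*, at 1.016 against 4.558 CPM, *Stc1*, at 1.815 against 6.444 CPM, and *Pik3cb*, at 1.452 against 2.986 CPM. *Stc1* was thus opposite in direction at 5 and 14 dpi. *Pappa* was within 2-fold at 5 dpi, at 19.96 against 17.29 CPM. In uninjured muscle 1 of 35, *Stat5a*, was higher at 2.10 (1.45 to 3.02), and none was lower, with a background of 3.95% and 3.82%. *Ghr*, the growth hormone receptor, was higher in hypothyroid FAP-like cells on all 3 days, within 2-fold, at 1.88, 1.38, and 1.40. *H19* was also higher in endothelial-like cells at 14 dpi, at 177.3 against 45.5 CPM (3.90, 3.15 to 4.83). At 5 dpi *H19* was instead lower past 2-fold in hypothyroid T cell-like, monocyte/macrophage-like, and myogenic progenitor-like cells. In FAP-like cells its level at 5 dpi was 463.1 against 343.9 CPM, above that of 14 dpi in both diets. *Igf2* in those cells at 5 dpi stood at only 1.67 against 1.57 CPM. In T cell-like cells at 5 dpi, 9 of 23 pathway genes were lower past 2-fold and none higher, beside a background of 17.8% and 3.51%, *Igf2r*, the clearance receptor of IGF2, at 0.272 (0.126 to 0.519) and *Irs2*, an adaptor of the receptor, at 0.221 (0.0438 to 0.696) among them, with a median of 0.576 against 0.785 over all genes. In monocyte/macrophage-like cells at 5 dpi, *Igf2bp3*, encoding a protein that binds *Igf2* mRNA, was higher at 56.0 against 11.3 CPM (4.95, 2.90 to 9.19), the 1 of 30 pathway genes higher (background 6.91%) beside 6 lower (13.9%), counts not far from those backgrounds.

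Over 28 pools of a cell type in a library with at least 50 cells, the genes with the pattern most like each member, by Pearson's r of log2(CPM + 1) among 11489 genes, included matrix and basement membrane genes. The pools share libraries and differ in depth, so r is a description. The nearest genes were *Timp2* for *Igf1* (r = 0.895), *Efnb2* and *Col4a2* for *Igfbp3* (0.939 and 0.930), *Plat* for *Igfbp4* (0.927), *Antxr1* for *Igfbp5* (0.956), *Col6a1* and the protease gene *Htra3* for *Igfbp6* (0.944 and 0.937), and *Col4a1* and *Col4a2* for *Igfbp7* (0.962 and 0.960). For *Igf1r* and *Igf2* the nearest genes were farther off, *Pcdhga12* at 0.783 and *Firre* at 0.707.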

How the data were processed

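Cells of male TAM were captured with 10x V3 chemistry, 1 library for each of 6 groups taken from the sample labels. Per the labels and the study's methods, the authors processed the reads with Cell Ranger in Partek (mm39), filtered cells, and deposited log2(CPM + 1) values per cell for 12436 genes. Column sums of the back-transformed values were 999975 to 1000028. A UMI was set to the commonest nonzero value in a cell, which made 99.934% of 39334018 values whole within 0.1 UMI. The deposited unit is log2 and not counts, and the intervals use the recovered UMIs. Since each group is 1 library, no test between groups was run.

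Each file holds runs of alphabetically ordered barcodes. The first runs (11207 of 20269 columns) were used, and the other 9062 columns were not assigned to a condition. No further cell filter and no doublet removal was applied. A cell took the marker list with the highest share of genes detected, with at least 2 markers and a lead of 0.1 over the next list, and was called myocyte-like when the myocyte list held 10% of its UMIs. The gate replaced one on z-scores and was set with the data in view. FAP subgates took the list with the highest share. Pools under 20 cells were not compared. A count of 0 allows up to 3 counts.

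The genes named were the 8 members, a list of 45 pathway genes, the markers, and the 3 genes most correlated with each member. The members and lists were chosen with earlier results of these data known. Ratios and gates were run on counts simulated from the pooled profiles of these cells. Such draws cannot show the effect of doublets, free RNA, or differences between libraries. Alternatives were all columns, Leiden clusters (20 components of 2000 variable genes, 15 neighbours, resolution 0.3) named by the marker lists, a gate of at least 3 markers and a lead of 0.2, leaving out the 2% of cells with the most UMIs, thinning to 1000 UMIs, the mean of the deposited values, and scaling to the median ratio. Python 3.11.15 was used with numpy 2.4.6, scipy 1.17.1, pandas 2.3.3, scikit-learn 1.9.0, igraph 0.11.9, leidenalg 0.10.2, and matplotlib 3.10.9.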

Additional observations from a re-analysis of the deposited data

Results flagged for a closer look

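The difference between diets changed sides between days in some cell types. *Igf1* in C1q-positive macrophage-like cells had a ratio of hypothyroid over control of 0.521 at 5 dpi and 1.64 at 14 dpi. The value at 5 dpi was 0.828 in thinned cells and 1.05 for the mean over cells, and at 14 dpi 1 cell held 29 of the 216 hypothyroid UMIs. *Igfbp7* in the same cells had 3.72 (120 against 5 UMIs) and 0.344 (22 against 17 UMIs), beside a summed FAP marker level in all monocyte/macrophage-like cells of 507.1 against 160.0 CPM at 5 dpi and 216.7 against 489.1 CPM at 14 dpi, whose part was not tested. *Igfbp7* in endothelial-like cells had 0.568 uninjured, 1.71 at 5 dpi, and 0.517 at 14 dpi, and at 5 dpi the monocyte/macrophage markers in these cells summed to 3161 CPM in hypothyroid against 53.9 CPM in control, whose part was not tested. *Igfbp3* at 14 dpi was on opposite sides in 2 cell types, at 2.32 in FAP-like cells and 0.549 in endothelial-like cells. With 1 library per group, none of these differences between days or cell types was tested.

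*Igf2* was also present in later-run columns, which are used only in the setting with all columns of each file pooled. FAP-like cells in the second run of the uninjured control file had 31.0 CPM, where the first run had none, but the 1152 columns of that run hold values identical to columns of the hypothyroid file of 14 dpi. In the second run of the control file of 5 dpi the level was 4.401 CPM, against 1.57 CPM in its first run. In the third run of the control file of 14 dpi it was 25.5 CPM, against 4.26 CPM in its first run and 28.0 CPM in the first run of the hypothyroid file of 14 dpi. The condition of these runs is not known, so none of the values can be read as *Igf2* in control muscle.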

How the results depend on the processing

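Each library stands alone, so no alternative measures the spread between mice. The 7 main ratios past 2-fold kept their direction in 49 of 49 alternatives and stayed past 2-fold in 38. In FAP-like cells at 14 dpi (hypothyroid over control), *Igf2* (6.58) was 2.42 with all columns pooled, 4.22 with cells thinned to 1000 UMIs, and 1.89 for the mean of the deposited values. *Igfbp3* (2.32) was 1.78, 2.15, and 3.94 under these, and 2.50 divided by the median ratio. *Igfbp5* (0.449) was 0.632, 0.529, 0.318, and 0.484, and 0.438 without the 2% of cells with the most UMIs. *Igfbp6* (0.470) was 0.580, 0.528, 0.518, and 0.507, and 0.458 with the stricter gate. *Igfbp7* at 5 dpi (2.06) was 1.70, 2.15, 2.93, and 2.58, and 2.20 without the 2% of cells. *Igfbp6* in control at 5 over 0 dpi (0.182) was 0.865, 0.277, 0.0741, and 0.165, and 0.215 without the 2% of cells. *Igf1r* in T cell-like cells (0.242) was 0.723 with all columns. Members past 2-fold, 21 over 7 comparisons, were 13 in thinned cells. All genes higher past 2-fold at 14 dpi (1.36%) were 2.55% at a minimum of 1 UMI, and those lower (6.78%) 3.53% at a minimum of 100 UMIs. Among ratios past 2-fold, the direction turned for *Igfbp5* at 5 over 0 dpi, to 1.25 with all columns in control and 1.02 for the mean of deposited values in hypothyroid muscle, and for *Igf1r* there, to 1.10. Ratios within 2-fold kept their direction in 211 of 245 alternatives, and *Igfbp7* in endothelial-like cells at 5 dpi (1.71) was 0.986 with all columns. All columns include copies of cells from other files. The second run of the uninjured control file holds 1152 columns identical to columns of the hypothyroid file of 14 dpi. That of the uninjured hypothyroid file holds 528 columns identical to columns of the control file of 5 dpi. Ratios to uninjured pools thus mix labels in that setting. Other runs lie close to another file's first run, so the remaining ratios may mix conditions too. The cause of the other changes was not tested. No paired analysis was possible because each group has 1 library.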

Other observations

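FAP-like cells in the later runs, whose condition is not known, differed from the first run of the same file in several members. In the third run of the control file of 14 dpi (929 FAP-like cells), *Igfbp3* was at 864.0 CPM, against 391.7 CPM in the first run, and *Igfbp5* at 991.2 against 2186 CPM. The first run of the hypothyroid file of 14 dpi, at 910.1 and 982.0 CPM, was closer to it. In the second run of the control file of 5 dpi (1231 FAP-like cells), *Igfbp3* was at 390.3 against 156.2 CPM and *Igfbp5* at 2182 against 721.9 CPM, where the first run of the control file of 14 dpi had 391.7 and 2186 CPM. In the third run of the hypothyroid file of 5 dpi (321 FAP-like cells), *Igfbp3* was at 169.3 against 232.8 CPM and *Igfbp5* at 885.3 against 446.4 CPM.

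The 1029 cells without a type held 10.0% of the *Igf1r* UMIs of all libraries. At 5 dpi *Igf1r* was at 181.3 CPM in such cells of control muscle and 64.8 CPM in those of hypothyroid muscle, and *Igfbp7* at 19.5 and 399.9 CPM.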
